A study of Mus musculus with 9 samples.

Results

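The complement components and regulators examined here were C1qa, C1qb, C1qc, C3, C4b, C3ar1, C5ar1, Serping1 and Cfb, and they were chosen by gene symbol. Of these 9 members, 8 were among the 15228 genes with values, and C5ar1 was not analysed here. A mean of at least 0.5 RPKM over all libraries, the level required for testing, was reached by 7 of the 8 members and by 13566 genes in all. RPKM is a level normalized for exon length and library size, so levels can be set side by side between genes. The cells were retinal cells sorted as retinal ganglion cells (RGCs) by a CD90.2+ CD48neg CD15neg CD57neg gate from wild-type, young adult C57BL/6J mice of both sexes. The Ctrl group came from intact retinas. The ONC group came from retinas at day 3 after optic nerve crush with intraocular PBS, and the TPEN group from retinas at day 3 after the same crush with intraocular TPEN, a membrane-permeable chelator of mobile zinc. Each group had 3 libraries, for which separate mice are not stated, so p-values may cover technical spread only. The Ctrl retinas received no injection, so crush and injection cannot be told apart in ONC/Ctrl.

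Complement is a protein cascade that tags surfaces for removal. In its classical pathway, C1q binds a target and starts the cleavage of C4 and C2, and the resulting enzyme cleaves C3, whose fragments stay on the surface and are recognised by receptors on phagocytes. The alternative pathway amplifies C3 cleavage through factor B, and regulators such as the C1 inhibitor hold the cascade back. In the retina and brain, C1q is made mainly by microglia, while C3 and C4 can also come from reactive astrocytes and other cells, and C1q and C3 are known for their part in synapse removal.

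The libraries held 19946993 to 23109754 reads. Of 11 RGC markers, 9 had values, and their summed level was 360 to 370 RPKM in Ctrl, 368 to 390 in ONC and 287 to 301 RPKM in TPEN. The neurofilament gene Nefl made up most of it at 193 to 271 RPKM, whereas Rbpms lay between 0.246 and 0.688 RPKM and Pou4f1 between 0.0746 and 0.678 RPKM. The sum thus mainly follows Nefl. Rbpms had means of 0.605, 0.393 and 0.319 RPKM in Ctrl, ONC and TPEN, and Pou4f1 of 0.571, 0.183 and 0.241 RPKM. Of the 9, 4 were lower in each ONC library than in each Ctrl library (Rbpms, Pou4f1, Nefh and Isl1). Another 4 were higher there (Slc17a6, Sncg, Nefm and Thy1), as in 20.7% of all genes tested. The share of all genes lower in ONC was not taken. In TPEN/ONC, 4 of the 9 were lower in each TPEN library than in each ONC library, as in 15.6% of all genes tested. These shares leave out genes under the level for testing, whereas the 9 include Rbpms, Slc17a6 and Pou4f1, which were under it. Only 1, Thy1, was higher in each TPEN library than in each ONC library, a direction for which the share over all genes was not taken. It was at 4.54 to 4.96 RPKM in Ctrl, 5.26 to 5.54 in ONC and 6.70 to 7.58 RPKM in TPEN. The summed level of 6 rod markers was 16075 to 19201 RPKM over the 9 libraries. Of 15 microglia and macrophage markers, 13 had values. Their summed level was 6.92 to 8.20 RPKM in Ctrl, 37.4 to 37.8 in ONC and 23.9 to 26.1 RPKM in TPEN, with Fcrls at 0 in 1 Ctrl library and every other marker above 0 in each library. In these bulk libraries, fewer cells of a type and less RNA per cell cannot be told apart.

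The upstream sequences of a gene of the C1q cluster and of C3 are shown because these genes differed in their response to TPEN, as described below. RefSeq promoter windows (GRCm38.p6) were matched for 4 of the 8 members with values, namely C1qb, C1qc, C3ar1 and C3. Each printed sequence is the 250 bases before the start, 5′ to 3′ on the strand of the gene. Capitals mark GAGGAA, a purine-rich pattern of PU.1 sites that is longer than the GGAA core shared by the ETS family. The C1qb window is chr4:136886201-136886450 on the minus strand, and the C3 window is chr17:57228137-57228386 on the minus strand.
C1qb: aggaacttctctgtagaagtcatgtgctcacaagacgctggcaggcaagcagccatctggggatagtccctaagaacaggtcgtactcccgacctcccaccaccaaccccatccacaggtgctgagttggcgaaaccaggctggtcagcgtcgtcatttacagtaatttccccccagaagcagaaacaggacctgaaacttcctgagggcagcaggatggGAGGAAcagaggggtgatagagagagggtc
C3: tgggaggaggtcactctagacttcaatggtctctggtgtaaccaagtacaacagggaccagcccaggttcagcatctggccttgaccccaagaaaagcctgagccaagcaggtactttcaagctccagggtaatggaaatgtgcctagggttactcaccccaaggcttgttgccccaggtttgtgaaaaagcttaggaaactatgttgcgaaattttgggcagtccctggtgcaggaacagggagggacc
The C1qb window held GAGGAA in the forward orientation beginning 30 bases before the start. The C1qc window held it in the reverse orientation beginning 193 bases before the start. The C3ar1 and C3 windows did not contain GAGGAA on either strand. The shorter GGAA was not searched for, and it can be read in both printed windows, so the C3 window does not lack an ETS core. GAGGAA was present on at least 1 strand in 23.3% of all 32851 windows of the same length. TTCNNNGAA, a letter pattern of STAT binding sites present in 7.02% of all windows, was not found in the 4 windows on either strand.

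Most members were higher in injured retinas. Tested with limma on log2(RPKM + 0.1), 6 of the 7 tested members were upregulated in ONC/Ctrl (adjusted p under 0.05 over all genes and a fold change of at least 1.5) against 4.58% of all genes tested, and 0 were downregulated. The 6 were C1qa, C1qb, C1qc, C3, C4b and Serping1, whereas Cfb did not pass. The median log2 fold change was 2.66 over the 7 members and 0.02 over all genes tested. C1qc, C3, C4b and Serping1 had Ctrl means under 0.5 RPKM and reached the level for testing through the injured groups, C3 through ONC alone. All genes were therefore also fitted without this limit. In that fit, 7 of 8 members, with C3ar1, were upregulated, against 6.19% of all genes. Every ONC library lay above every Ctrl library in 6 of the 7 tested members, as in 20.7% of all genes tested.

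C1qa, C1qb and C1qc encode the A, B and C chains of C1q, the recognition molecule of the classical pathway. They lie next to each other on the minus strand of chromosome 4 (GRCm38), C1qb at 136880129 to 136886187, C1qc at 136889804 to 136893065 and C1qa at 136895917 to 136898803. C1qa was at 0.601, 0.583 and 1.25 RPKM in Ctrl, 10.3, 7.20 and 9.67 in ONC and 4.81, 4.93 and 5.50 RPKM in TPEN. The groups did not overlap, and TPEN lay between Ctrl and ONC. Its mean was 11.2 times as high in ONC as in Ctrl, and the log2 fold change was 3.39 (SE 0.24, limma adjusted p = 9.62e-06).

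C1qb was at 0.492, 0.795 and 1.01 RPKM in Ctrl, 6.52, 8.28 and 6.96 in ONC and 4.69, 3.02 and 4.24 RPKM in TPEN. C1qc was at 0.323, 0.179 and 0.516 RPKM in Ctrl, 3.02, 2.46 and 2.86 in ONC and 1.32, 2.03 and 1.40 RPKM in TPEN. Both genes had the same order of non-overlapping groups as C1qa. The log2 fold change in ONC/Ctrl was 3.13 for C1qb (SE 0.23, limma adjusted p = 1.20e-05) and 2.78 for C1qc (SE 0.27, limma adjusted p = 7.28e-05).

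The proportions of the 3 chains were not seen to differ between groups. Of the summed C1q level, C1qa made up 41.6% ± 3.85 in Ctrl, 47.2% ± 6.24 in ONC and 47.7% ± 2.85 in TPEN (SD, n = 3). C1qc was the smallest share of RPKM in every library, between 11.5% and 22.8% of the sum. This share depends on the listed exon lengths, 1931 bases for C1qc against 1040 for C1qa and 1088 for C1qb. In reads, C1qc was above C1qb in Ctrl replicate 1 (14 against 12) and TPEN replicate 2 (87 against 73). An exact permutation test over the 3 groups gave p = 0.25 for the C1qa share, 0.818 for C1qb and 0.657 for C1qc, and adjusted values over the 3 chains of 0.75, 0.818 and 0.818.

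**Figure D1:**
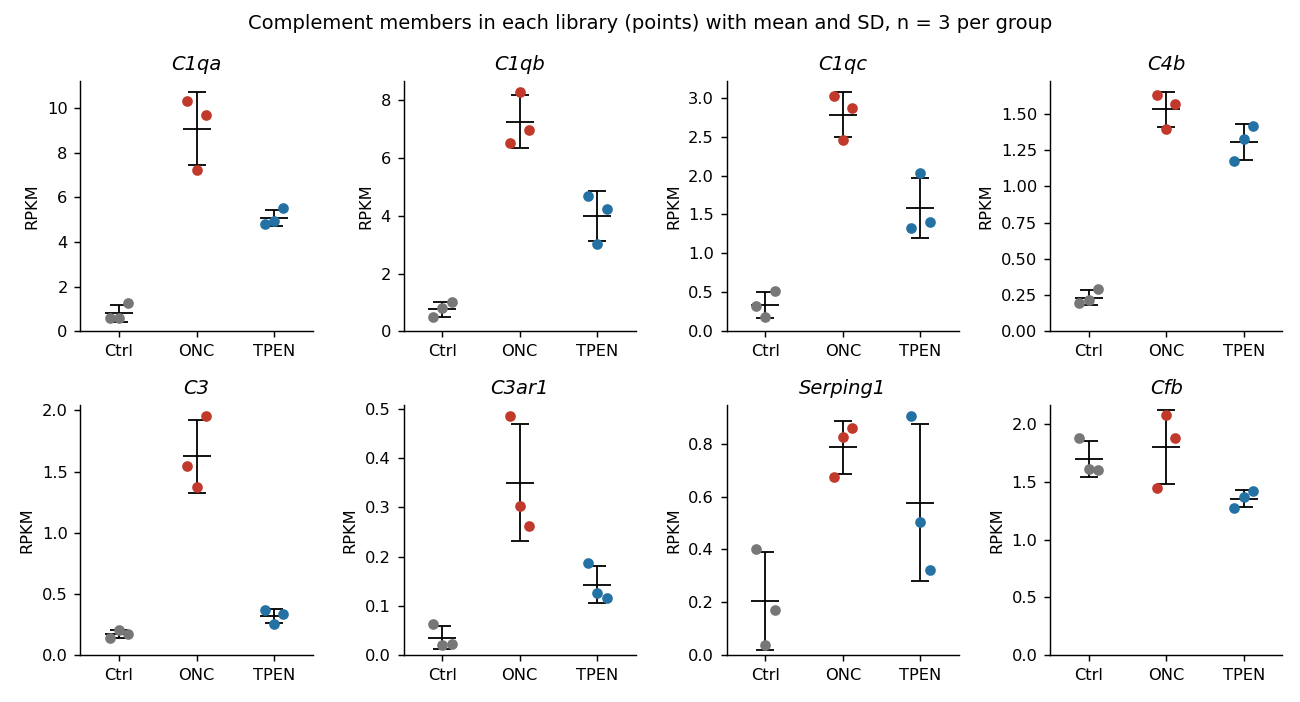
RPKM of the 8 members with values in each library (points, 3 per group) with the group mean and SD (bars), each panel on its own axis from 0. In the C1q genes, C3 and C3ar1 the TPEN libraries sit between Ctrl and ONC, C4b stays near ONC, and Cfb differs little, with group means of 1.70, 1.80 and 1.36 RPKM in Ctrl, ONC and TPEN.

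In TPEN/ONC the 3 C1q genes were lower in each TPEN library than in each ONC library, but they did not pass the test over all genes. The log2 fold change was -0.81 for C1qa (SE 0.24, limma adjusted p = 0.0806), -0.86 for C1qb (SE 0.23, limma adjusted p = 0.0536) and -0.79 for C1qc (SE 0.27, limma adjusted p = 0.115). The calls turned on the settings. All 3 were downregulated when only the 6 ONC and TPEN libraries were fitted and with voom on whole reads, C1qa and C1qb when Ctrl replicate 3 was left out or the pseudocount was 1 RPKM, and C1qb alone without Ctrl replicate 1 or after quantile normalization. In TPEN/Ctrl each was upregulated, with log2 fold changes of 2.58, 2.26 and 1.99 for C1qa, C1qb and C1qc. TPEN libraries kept 51.8% ± 4.42 of the Ctrl-to-ONC difference in RPKM for C1qa, 49.6% ± 13.3 for C1qb and 51.0% ± 15.8 for C1qc (SD, n = 3).

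C4b, the mouse gene of complement C4, stands downstream of C1q in the classical pathway and lies on chromosome 17 at 34728380 to 34743882, on the minus strand. C4b was at 0.196, 0.213 and 0.289 RPKM in Ctrl, 1.63, 1.40 and 1.57 in ONC and 1.18, 1.33 and 1.42 RPKM in TPEN. All injured libraries were above all Ctrl libraries, and the ONC and TPEN ranges overlapped. The log2 fold change was 2.30 in ONC/Ctrl (SE 0.15, limma adjusted p = 4.65e-06) and 2.09 in TPEN/Ctrl (SE 0.15, limma adjusted p = 1.71e-05). In TPEN/ONC it was -0.22, with a 95% interval from -0.55 to 0.12 (limma adjusted p = 0.446), and 82.6% ± 9.32 of the rise was kept (SD, n = 3). C4b has a near copy, C4a, on the same chromosome, and 16.5% of the 100-base stretches of its longest transcript (GENCODE M21) also occur in C4a, so reads from those stretches are uncertain. C4a itself was between 0.272 and 0.512 RPKM in all libraries. In the fit without a lower level, the log2 fold change of C4a in ONC/Ctrl was 0.25 (limma adjusted p = 0.394).

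C3, the central component that all pathways converge on, lies on chromosome 17 at 57203970 to 57228136, on the minus strand. C3 was at 0.139, 0.202 and 0.174 RPKM in Ctrl, 1.55, 1.37 and 1.96 in ONC and 0.370, 0.254 and 0.331 RPKM in TPEN. These values stood for 16 to 24 reads per library in Ctrl, 162 to 231 in ONC and 29 to 38 in TPEN. The groups did not overlap, and TPEN lay close to Ctrl. The log2 fold change of C3 in ONC/Ctrl was 2.66 (SE 0.19, limma adjusted p = 9.51e-06).

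Among the tested members, C3 was the only one downregulated in TPEN/ONC, 1 of 7 against 1.21% of all genes tested. Its log2 fold change was -2.04 (SE 0.19, limma adjusted p = 2.70e-04), and it kept 10.1% ± 4.06 of its rise (SD, n = 3). The call held under each of 17 alternative settings that could test it, with adjusted p-values from 1.42e-08 to 0.00487. With means of 0.172, 1.63 and 0.318 RPKM in Ctrl, ONC and TPEN, C3 reached the level for testing through ONC alone. The count of 1 of 7 thus depends on its high ONC level. In the fit without that level, C3 was also downregulated in TPEN/ONC (limma adjusted p = 1.55e-04). The residual difference in TPEN/Ctrl, a log2 fold change of 0.62 (limma adjusted p = 0.0613), did not pass. After quantile normalization it was -0.19, and in the fit without a lower level C3 was upregulated (limma adjusted p = 0.0492), with adjusted p-values from 0.0492 to 1 over the alternatives. Every TPEN library lay below every ONC library in 5 of 7 tested members (C1qa, C1qb, C1qc, C3 and Cfb), as in 15.6% of all genes tested. In TPEN/Ctrl, 4 of 7 members were upregulated (C1qa, C1qb, C1qc and C4b), against 3.45% of all genes tested, and 0 were downregulated.

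C3ar1 encodes the receptor of the C3 fragment C3a and was the lowest member. It was at 0.0622, 0.0201 and 0.0231 RPKM in Ctrl, 0.485, 0.303 and 0.263 in ONC and 0.186, 0.125 and 0.116 RPKM in TPEN, or 6, 2 and 2 reads in Ctrl, 48, 30 and 26 in ONC, and 16, 12 and 10 in TPEN. The groups did not overlap, but its mean of 0.176 RPKM was under the level for testing. In the fit of all genes without that level, the log2 fold change was 1.72 in ONC/Ctrl (SE 0.23, limma adjusted p = 4.64e-04) and -0.87 in TPEN/ONC (SE 0.23, limma adjusted p = 0.0454). With that fit, C3 and C3ar1 were the 2 of 8 members downregulated in TPEN/ONC, against 1.85% of all genes. The TPEN libraries kept 47.8%, 28.6% and 25.8% of the rise of C3ar1.

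Serping1 encodes the C1 inhibitor, which blocks the proteases bound to C1q. It was at 0.403, 0.0372 and 0.171 RPKM in Ctrl, 0.674, 0.824 and 0.861 in ONC and 0.904, 0.503 and 0.323 RPKM in TPEN. The ONC libraries were above all Ctrl libraries, whereas the TPEN libraries overlapped both groups. Ctrl replicate 2 held 2 reads and Ctrl replicate 1 held 21. Its log2 fold change of 1.73 in ONC/Ctrl (SE 0.45, limma adjusted p = 0.0238) lost its call when Ctrl replicate 2, ONC replicate 1 or Ctrl replicate 3 was left out, where the adjusted p rose to at most 0.0599. The call was also lost after quantile normalization (log2 fold change 1.17, limma adjusted p = 0.0668), with a pseudocount of 1 RPKM (log2 fold change 0.58, under the fold threshold) and in a test against a 1.5-fold change (limma adjusted p = 0.526), whereas the lowest adjusted p over the alternatives was 5.11e-04, with voom on whole reads. Without ONC replicate 2, ONC replicate 3 or TPEN replicate 1, its mean was under the level for testing. In TPEN/ONC its log2 fold change was -0.47, with a 95% interval from -1.48 to 0.53.

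Cfb encodes factor B, the protease of the alternative pathway. Cfb was at 1.88, 1.61 and 1.60 RPKM in Ctrl, 1.45, 2.08 and 1.88 in ONC and 1.28, 1.37 and 1.42 RPKM in TPEN. Ctrl and ONC overlapped, and the log2 fold change in ONC/Ctrl was 0.07 with a 95% interval from -0.24 to 0.38 (limma adjusted p = 0.774). The TPEN libraries lay below all others, but the log2 fold change in TPEN/ONC of -0.37 (limma adjusted p = 0.145) did not pass. Cfb shares 2246 exon bases, 79.5% of its exon length, with the listed gene Gm20547 on the same strand. Gm20547 had group means of 1.26, 1.32 and 0.958 RPKM in Ctrl, ONC and TPEN, so the reads of Cfb are uncertain.

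**Figure D2:**
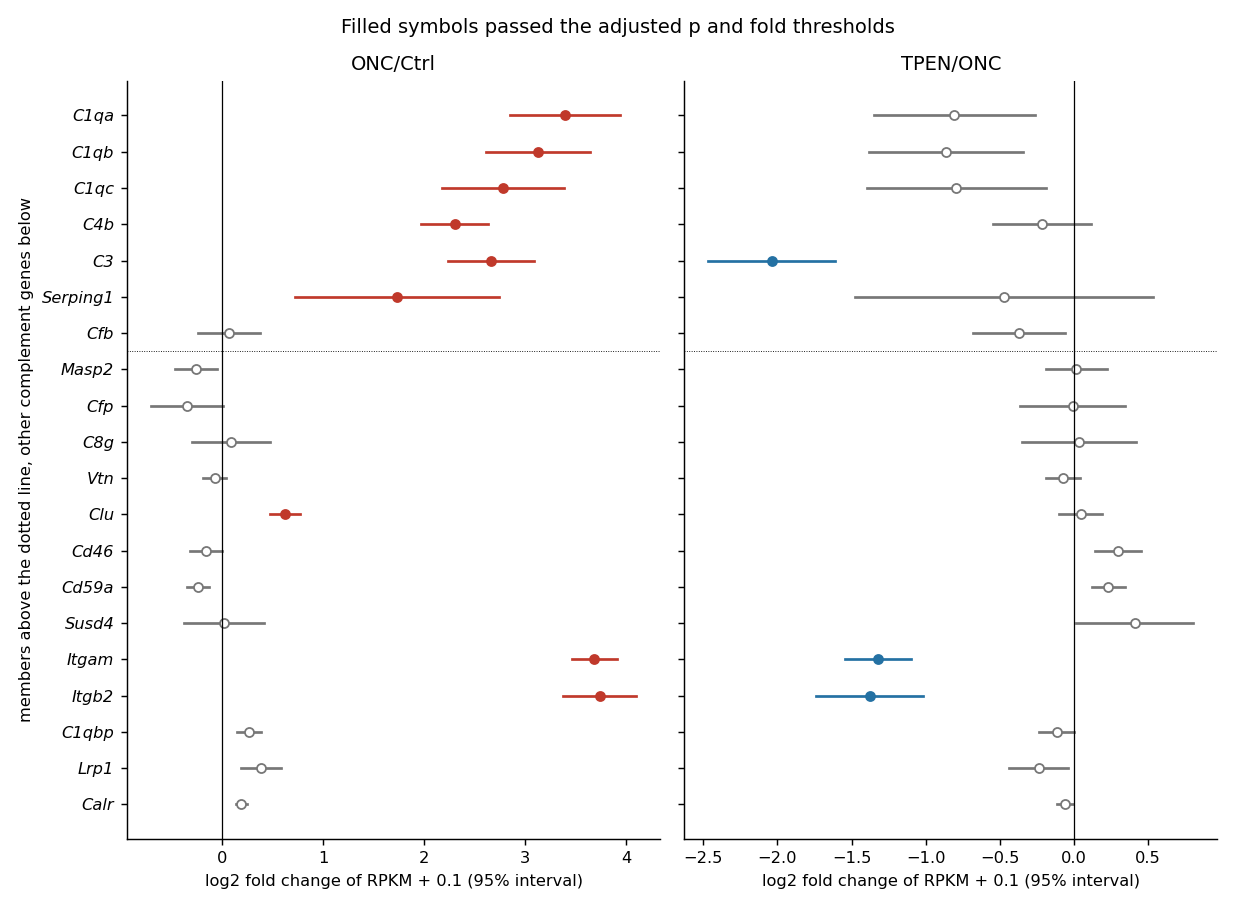
Log2 fold changes of RPKM + 0.1 with 95% intervals in ONC/Ctrl and TPEN/ONC for the 7 tested members (above the dotted line) and 13 other tested complement genes (below), where filled symbols passed both thresholds. In TPEN/ONC the filled symbols are C3 (-2.04), Itgam (-1.32) and Itgb2 (-1.38).

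Each member was also tested on its own. An exact permutation test of log2(RPKM + 0.1) over all 280 regroupings into 3 groups of 3 gave p = 0.00357, the smallest it can give, for C1qa, C1qb, C1qc, C3 and C3ar1, and p = 0.00714 for C4b. The adjusted values over the 8 members were 0.00571 and 0.00952. Serping1 had p = 0.05 (adjusted 0.0571) and Cfb p = 0.0714 (adjusted 0.0714) in the same exact test. For a pair of groups, the two-sided exact test cannot go below p = 0.1, which all ONC/Ctrl comparisons but that of Cfb reached.

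The order of levels within a group changed with injury. In Ctrl, Cfb was the highest member at 1.70 ± 0.158 RPKM (SD, n = 3), and its libraries were all above those of C1qa, the next in order. From C1qa down to C3 the neighbours in the Ctrl order overlapped. In ONC the order was C1qa, C1qb, C1qc, Cfb, C3, C4b, Serping1 and C3ar1, in which C1qa overlapped C1qb, Cfb overlapped C3, and C3 overlapped C4b. In TPEN the order was C1qa, C1qb, C1qc, Cfb, C4b, Serping1, C3 and C3ar1. C3 thus stood next to last in Ctrl and TPEN but above C4b, Serping1 and C3ar1 in ONC, although its range overlapped that of C4b in ONC and that of Serping1 in TPEN.

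The members did not move as a unit. The log2 ratio of each other member to the mean of the 3 C1q genes was taken within each library, and 5 such ratios were tested over the 3 groups with the exact permutation test. The ratio of C3 was -1.31 ± 0.479 in Ctrl, -1.75 ± 0.201 in ONC and -2.97 ± 0.206 in TPEN (SD, n = 3; exact permutation p = 0.00714, adjusted 0.0179). Each TPEN library was below all other libraries, and the difference of means in TPEN/ONC was -1.22 log2 units. Ctrl and ONC overlapped in this ratio, and the pseudocount of 0.1 RPKM understates the rise of C3 from its low Ctrl level. In RPKM means, C3 was 9.47 times as high in ONC as in Ctrl, within the 8.19 to 11.2 times of the C1q genes. C4b, at 6.60 times, was below that range. The ratio of C4b was -1.02 ± 0.263 in Ctrl, -1.82 ± 0.0298 in ONC and -1.21 ± 0.109 in TPEN (SD, n = 3; exact permutation p = 0.0107, adjusted 0.0179). Here each TPEN library was above each ONC library.

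The ratio of Cfb to C1q was 1.42 ± 0.535 in Ctrl, -1.61 ± 0.325 in ONC and -1.16 ± 0.0576 in TPEN (SD, n = 3; exact permutation p = 0.00357, adjusted 0.0179). Cfb itself overlapped between Ctrl and ONC and was lower in TPEN than in ONC. This ratio therefore mainly restates the change of the C1q genes, and the reads of Cfb are uncertain. On this scale the ratio of C3ar1 was lower in both injured groups than in Ctrl and overlapped between them (exact permutation p = 0.0286, adjusted 0.0357), though p was 0.05 or more when any single ONC or TPEN library was left out. The pseudocount of 0.1 RPKM is larger than the Ctrl level of C3ar1 and shrinks its differences. In RPKM means, C3ar1 was 9.97 times as high in ONC as in Ctrl, within the 8.19 to 11.2 times of the C1q genes. With voom on whole reads and no lower level, its log2 fold change was 3.23, against 3.55, 3.27 and 3.13 for C1qa, C1qb and C1qc, so on these scales its rise lay within the range of the C1q genes. The ratio of Serping1 did not pass (exact permutation p = 0.0929, adjusted 0.0929).

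**Figure D3:**
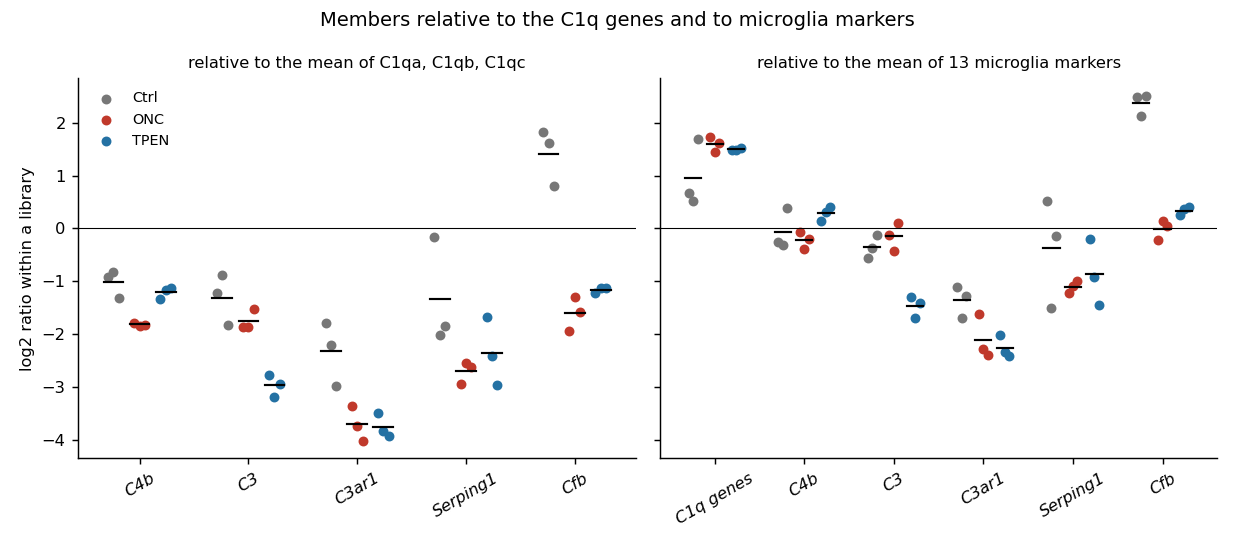
Log2 ratios within each library (points, 3 per group, lines at the means) of members to the mean of the 3 C1q genes (left) and of members and the C1q mean to the mean of 13 microglia and macrophage markers (right). Relative to these 13 markers, the C1q genes overlap between ONC (1.60) and TPEN (1.50), C3 is lower in TPEN (-1.47 against -0.15), and C4b is higher (0.29 against -0.22).

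Most microglia and macrophage markers moved with the C1q genes. All 10 microglia and macrophage markers that reached the level for testing were upregulated in ONC/Ctrl, against 4.58% of all genes tested. P2ry12, Tmem119, Aif1, Trem2, Fcrls, Siglech and Cd68 had Ctrl means under 0.5 RPKM and reached that level through the injured groups, Tmem119 through ONC alone. Sall1, Ptprc and Adgre1, under the level, were upregulated in the fit without it, against 6.19% of all genes. In TPEN/ONC, 4 of the 10 (Tmem119, Csf1r, Aif1 and Cd68) were downregulated, against 1.21% of all genes tested. There, 11 of the 13 with values were lower in each TPEN library than in each ONC library, as in 15.6% of all genes tested. That share leaves out genes under the level for testing, whereas the 13 include Sall1, Ptprc and Adgre1. Siglech and Sall1 overlapped between ONC and TPEN. Their log2 fold changes in TPEN/ONC were -0.18 and 0.01, the latter in the fit without the level. Relative to the mean log2 level of the 13 markers, the C1q genes differed by -0.10 log2 units in TPEN/ONC with overlapping groups. On the same scale C3 differed by -1.32 and C4b by 0.51, and in both genes ONC and TPEN did not overlap. The gate took CD48neg cells, and CD48 is a surface protein of leukocytes. Of 8 monocyte and neutrophil markers, 1 had values. This was Lyz2, a lysozyme gene of myeloid cells, which was at 0.410 to 0.629 RPKM in Ctrl, 18.4 to 20.6 in ONC and 4.04 to 5.12 RPKM in TPEN. Markers of other retinal cells differed as well. All 5 cone markers were upregulated in TPEN/ONC, against 111 of all 13566 genes tested. Their log2 fold changes ran from 0.73 for Arr3 to 0.89 for Pde6h. The sums of the 5 were 102 to 107 RPKM in Ctrl, 88.5 to 96.3 in ONC and 156 to 158 RPKM in TPEN. Of 7 Müller glia markers, 2 were upregulated in ONC/Ctrl (Apoe and Vim), against 4.58% of all genes tested. In TPEN/ONC, 1 was downregulated (Apoe), against 1.21%. The sums of the 7 were 548 to 572 RPKM in Ctrl, 618 to 631 in ONC and 482 to 492 RPKM in TPEN. Glul and Rlbp1 of the same list were lower in each ONC library than in each Ctrl library, by less than the fold threshold, with log2 fold changes of -0.57 and -0.18, and Glul was downregulated in TPEN/Ctrl. Of 4 astrocyte markers with values, 2 were upregulated in ONC/Ctrl (Gfap and Aldh1l1), against 4.58% of all genes tested. In TPEN/ONC, 1 was downregulated (Gfap), against 1.21%. The sums of the 4 were 15.1 to 16.3 RPKM in Ctrl, 34.4 to 36.5 in ONC and 27.3 to 29.5 RPKM in TPEN. Aqp4 was lower in each ONC library than in each Ctrl library, with a log2 fold change of -0.32. Gfap was at 2.73 to 2.83 RPKM in Ctrl, 21.8 to 22.9 in ONC and 13.4 to 15.1 RPKM in TPEN, and Apoe at 168 to 174, 264 to 274 and 175 to 184 RPKM. The part of these cells in the levels of the members was not tested.

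Of 50 other complement genes, 19 had values and 13 reached the level for testing. Of these 13, 3 were upregulated in ONC/Ctrl (Clu, Itgam and Itgb2), against 4.58% of all genes tested, and 0 downregulated. In TPEN/ONC, 2 of the 13 were downregulated (Itgam and Itgb2), against 1.21% of all genes tested, and 0 upregulated. The 3 genes remained upregulated in TPEN/Ctrl, against 3.45% of all genes tested. Itgam and Itgb2 had Ctrl means of 0.332 and 0.175 RPKM and reached the level for testing through the injured groups. The median log2 fold change of the 13 was 0.09 in ONC/Ctrl and -0.01 in TPEN/ONC, against 0.02 and -0.01 over all genes tested.

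Among the receptors, Itgam and Itgb2 encode the chains of complement receptor 3, which binds the C3 fragment iC3b on opsonised surfaces. Itgam was at 0.320 to 0.353 RPKM in Ctrl, 5.10 to 5.77 in ONC and 1.96 to 2.26 RPKM in TPEN. Itgb2 was at 0.142 to 0.205 RPKM in Ctrl, 3.54 to 3.56 in ONC and 1.15 to 1.67 RPKM in TPEN. In both genes the groups did not overlap. The log2 fold change in TPEN/ONC was -1.32 for Itgam (SE 0.10, limma adjusted p = 5.80e-05) and -1.38 for Itgb2 (SE 0.16, limma adjusted p = 0.00107), and they kept 35.0% ± 2.91 and 34.0% ± 8.93 of their rise (SD, n = 3). Cd93, a membrane receptor once described as a C1q receptor, was under the level for testing. It was at 0.209 to 0.365 in ONC and at most 0.0389 RPKM in every other library, where it was listed at 0 in 1 Ctrl and 1 TPEN library, and its log2 fold change in TPEN/ONC was -1.71 in the fit without that level (limma adjusted p = 0.00128). It kept -3.41% ± 3.34 of its rise (SD, n = 3), less than any member.

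Among the regulators in plasma and tissue fluid, Clu encodes clusterin, which keeps the terminal complex from inserting into membranes. Clu was at 27.4 to 32.4 RPKM in Ctrl, 45.2 to 49.9 in ONC and 47.0 to 50.4 RPKM in TPEN. The ONC and TPEN ranges of Clu overlapped, with a log2 fold change of 0.04 in TPEN/ONC and a 95% interval from -0.10 to 0.19. Vtn, which encodes vitronectin, another inhibitor of the terminal complex, was at 285 to 348 RPKM in all libraries and was no DEG in any comparison.

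Of 5 membrane regulators with values, none that was tested passed both thresholds in any comparison. Cd59a, which blocks assembly of the terminal complex on the cell surface, was at 35.9 to 36.8 RPKM in Ctrl, 29.5 to 32.3 in ONC and 34.5 to 38.7 RPKM in TPEN. Its log2 fold change was -0.24 in ONC/Ctrl (SE 0.05, limma adjusted p = 0.00765) and 0.23 in TPEN/ONC (SE 0.05, limma adjusted p = 0.0205). Cd46 was at 3.30 to 3.52, 2.97 to 3.06 and 3.51 to 3.89 RPKM in the same order of groups, with a log2 fold change of -0.16 in ONC/Ctrl (SE 0.07, limma adjusted p = 0.150), which passed neither threshold, and 0.30 in TPEN/ONC (SE 0.07, limma adjusted p = 0.0334). In both genes each ONC library was below each Ctrl and TPEN library. Cr1l, under the level for testing, was in the other order, at 0.155 to 0.207 RPKM in Ctrl, 0.210 to 0.261 in ONC and 0.266 to 0.348 RPKM in TPEN. Masp2, the properdin gene Cfp and the terminal component gene C8g passed in no comparison, and C2 was under the level for testing. Masp2 shares 1817 exon bases, 54.9% of its exon length, with Tardbp on the opposite strand, which had a mean of 46.6 RPKM. The use of strand in counting is not given, so the reads of Masp2 are uncertain.

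**Figure D4:**
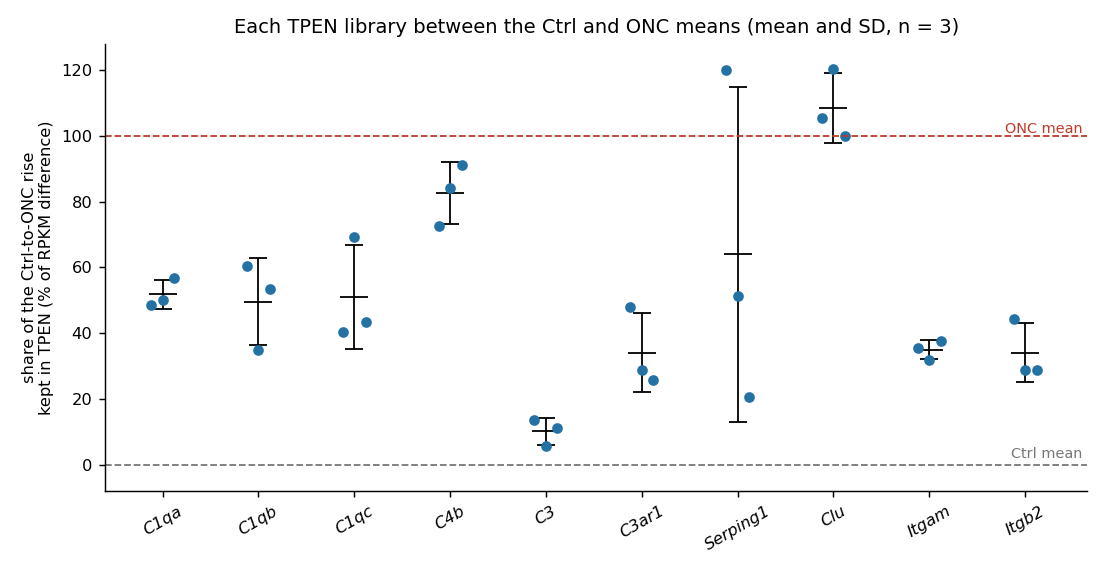
Share of the Ctrl-to-ONC rise in RPKM that each TPEN library (points) kept, with mean and SD (bars, n = 3), for the members upregulated in ONC/Ctrl (C3ar1 in the fit without a lower level) and the 3 other tested complement genes upregulated there, where 0% is the Ctrl mean and 100% the ONC mean. Of those plotted, C3 (10.1%) lies lowest, C3ar1, Itgam and Itgb2 near 34% to 35%, the C1q genes near 50% to 52%, Serping1 at 64.0% with its libraries wide apart, C4b at 82.6% and Clu at 109%.

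Among 12126 other genes averaging 1 RPKM or more, up to 3 of those with the highest Pearson correlation with each member are given as a description over the same 9 libraries, which share the 3 groups. For C1qa they were Antxr2 (r = 0.991), Prss56 and Gm20425, for C1qb 6430562O15Rik (r = 0.990) and Mcl1, and for C1qc Unc93b1 (r = 0.992), Bin2 and Gm21970. Unc93b1 was at a mean of 0.310 RPKM in Ctrl, 2.76 in ONC and 1.62 RPKM in TPEN. The genes most like C3 were Vat1l (r = 0.988), Map1a and Arg1, the gene of arginase 1, which had means of 0.278, 39.1 and 1.04 RPKM in the same order. The genes most like C4b were Gadd45b (r = 0.995), Sec22c and Gnb3, and Gadd45b, a stress-response gene, had means of 1.35, 13.7 and 10.6 RPKM. Serping1 was most like Ildr2 (r = 0.980), Med9 and Hopxos, and Cfb most like its overlapping gene Gm20547 (r = 0.972), Ccdc93 and Itpkc. Among the members, r was 0.938 to 0.983 between the C1q genes and 0.729 between C3 and C4b.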

How the data were processed

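Sorted retinal cells were sequenced from stranded mRNA libraries with molecular identifiers. Per the submitters' processing notes, reads were trimmed with Trimmomatic 0.36, and the authors mapped them with STAR to GRCm38/mm10. The counting program, the annotation and the use of strand and identifiers in counting are not given in the sources used here. The authors deposited RPKM values (exon length and library size normalized) and the p-values, FDR and log2 fold changes of their own comparisons, which were not used. RPKM times length gave whole reads for 100% of values (tolerance 0.05). Genes averaging 0.5 RPKM or more were tested in 1 fit over 9 libraries with limma 3.58.1 (R 4.3.3), with a variance trend on log2(RPKM + 0.1) and Benjamini-Hochberg adjustment. The pseudocount understates changes of low genes. DEGs passed the 2 thresholds of the study, an adjusted p of 0.05 and a 1.5-fold change. Exact permutation tests used Python 3. Named genes were all members, DEGs and regulators of the complement list, the 3 genes most like each member, and overlapping genes. A listed complement gene and a gene most like C1qb are not reported here. Members and lists were chosen with earlier results of these data known. The fit was tested on simulated data. Alternatives were quantile normalization, other limits on low genes, other pseudocounts and fold thresholds, voom on whole reads, a replicate block and leaving out each library.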

Additional observations from a re-analysis of the deposited data

How the results depend on the processing

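Of the log2 fold changes of the members under alternative settings, 115 kept their direction and side of the threshold in ONC/Ctrl, 6 fell short of it, all of Serping1, and 1 reversed, that of Cfb, which was -0.034 without ONC replicate 2 and up to 0.21 without ONC replicate 1. In TPEN/Ctrl 117 were kept, 4 newly passed (C3 under 1 setting and Serping1 under 3) and 1 reversed, that of C3, which was -0.19 after quantile normalization. In TPEN/ONC 107 were kept and 15 newly passed. The number of members downregulated in TPEN/ONC was 1 as reported, 2 after quantile normalization (C1qb, C3), 2 without a lower level (C3, C3ar1), 0 with a mean of at least 1 RPKM, which excluded C3, 3 with a pseudocount of 1 RPKM (C1qa, C1qb, C3), 4 with only the 6 libraries compared, 4 with voom on whole reads, and 5 with voom and no lower level, a setting chosen after seeing the data. Leaving out 1 library gave 1 to 3 (3 without Ctrl replicate 3, 2 without Ctrl replicate 1). The cause was not tested. With voom on whole reads, 659 genes rose and 129 fell in ONC/Ctrl, and 151 rose and 219 fell in TPEN/ONC, against 622, 102, 111 and 164 as reported. After quantile normalization 525 rose and 184 fell in ONC/Ctrl.

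In the exact permutation test over the groups, leaving out 1 library gave p from 0.0143 to 0.121 for Serping1 (0.0143 without Ctrl replicate 1) and from 0.0107 to 0.218 for Cfb (0.0107 without ONC replicate 1). For the ratio to the C1q genes it gave 0.0286 to 0.0714 for C3ar1. The ratio of Serping1 had p = 0.00357 in the exact test with a pseudocount of 1 RPKM. On the log2 scale the share of the rise kept in TPEN was 76.2% for C1qa, 72.3% for C1qb, 71.5% for C1qc, 23.3% for C3 and 49.3% for C3ar1.

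Same-numbered libraries were not seen to deviate together, with correlations of -0.06 to 0.03 over 9 pairs and 4 of 18 best matches to the own number. With 3 libraries per group, this check cannot show that they share nothing. With the replicate block, 6 members rose in ONC/Ctrl, 1 fell in TPEN/ONC and 4 rose in TPEN/Ctrl, the same genes as without it. Low read numbers limit C3ar1, Serping1 and the Ctrl levels.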
